A study of Mus musculus with 18 samples.

Results

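Gene expression in hippocampal tissue was compared between high-performing and low-performing Diversity Outbred mice, with 3 libraries in each group. The 6 libraries are those of the tissue named HPF in the labels, out of 18 in the study, and all genes with a mean of at least 10 normalized counts over them were taken, 18082 of the 48440 genes in the deposited table. The other 12 libraries come from PFC and MDTH, with 3 high and 3 low performers in each. Diversity Outbred mice are an outbred stock bred from several inbred founder strains, so that every animal carries its own mosaic of founder alleles. The study asked what underlies variation in short-term memory, per its title and design text. Both HPF groups were untreated as far as the labels say, and differ only in the label high or low performing mouse. Age, sex, the task behind the labels, the borders of the dissection and the number of animals behind a library are not given in the sources used here, and a p-value here reflects only how far these libraries spread, which may be technical.

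The hippocampus passes information along a chain of cell types. Granule cells of the dentate gyrus send mossy fibres to CA3 pyramidal cells, CA3 cells excite each other and project to CA1, and CA1 projects to the subiculum. CA2 is a small field between CA3 and CA1 known for its part in social memory. Each field has its own marker genes, so a bulk profile depends both on expression within cells and on how much of each field the dissected piece holds. In bulk tissue, fewer cells of a type and less RNA per cell cannot be told apart.

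Estimated depth was 76705451 to 88633852 reads per HPF library. The tissue label was checked against markers: the dentate gene C1ql2 ran from 2960 to 5230 normalized counts in HPF and reached at most 404 in MDTH and 303 in PFC. Prox1, another dentate gene, was at 10100 to 14700 in HPF, up to 12000 in MDTH and up to 1450 in PFC, and the CA1 gene Wfs1 overlapped between the 3 tissues, so HPF and MDTH were not apart by every marker. Fibcd1, Iyd and Cpne4, of the CA1 and CA3 lists, also overlapped between HPF and MDTH. Cpne4 was at 5660 to 18300 in HPF and at 5900 to 13100 in MDTH. The male gene Ddx3y was at 2560 to 3480 normalized counts and Xist at 1.14 to 15.6 in all 6 HPF libraries. Sequencing lane moved with group: high 1 and high 2 were in lane 3, low 1 and low 2 in lane 5, and high 3 and low 3 in lane 4. Across all genes tested, correlations of log2 values were 0.963 to 0.972 within high, 0.970 to 0.973 within low and 0.962 to 0.971 between groups. The first principal component, with 27.6% of the variance, placed the high libraries at -24.3, -29.1 and -51.4 and the low libraries at 33.6, 38 and 33.3. High 2 stood apart on the second component, at 63.6 against -31.2 to 9.1 in the others.

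Few single genes separated the groups once all 18082 were tested. With limma's moderated test and Benjamini-Hochberg adjustment, 3 genes had an adjusted p below 0.05 and are said to have passed, 0.0166% of those tested, 2 higher (0.0111%) and 1 lower (0.00553%) in high performers. A further view of the same values asks only whether every high library lies above, or below, every low library. By that count 3625 genes did not overlap (20.0%), 1532 with high performers above (8.47%) and 2093 below (11.6%). In what follows a list's members are said to lie above or below only in this sense, and these shares are the background. The lists were chosen with earlier results of these data known, so their counts and medians are descriptions and not tests. At an unadjusted p below 0.05 there were 2399 genes, 1068 higher and 1331 lower, and at an adjusted p below 0.1 there were 42, 20 higher and 22 lower. The median 95% interval of a gene, not adjusted for the number tested, reached 0.40 to either side on the log2 scale, a 1.32-fold difference. Smaller differences of a typical gene were not detectable with 3 libraries a group. Passing among 18082 genes took more than that: Gpr161, at 2.16 with SE 0.24, did not pass. A gene that did not pass may therefore still differ by more than 1.32-fold. Log2 differences are high minus low performers after 1 is added to each normalized count, which makes the change of low genes look smaller than it is.

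The protein-coding gene that passed was Iyd, which encodes iodotyrosine deiodinase, an enzyme that recovers iodide from iodinated tyrosines in the thyroid, and which is among the markers listed here for CA3. Iyd (ENSMUSG00000019762, GRCm38 chromosome 10, 3540240 to 3554877, plus strand) was at 59.7, 74.8 and 69.6 normalized counts in the high libraries and at 489, 521 and 388 in the low libraries. The groups were far apart, with every low library more than 5 times above every high one. Iyd fell 6.85-fold in high performers, from 466 ± 69.3 to 68.0 ± 7.68 (SD, n = 3 each). On the log2 scale that was -2.75, with SE 0.20 and a 95% interval from -3.22 to -2.28 (adjusted p = 0.0181 by limma). Its call was lost when high 1, high 2, low 1 or low 3 was left out (adjusted p between 0.0513 and 0.0705) and within lane, where high 3 and low 3 differed by -2.46 (adjusted p = 0.243).

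Other CA3 markers lay below in high performers without passing. Of 11 listed genes of CA3 pyramidal and mossy cells, 1 passed, lower. High performers lay below without overlap in 5, beside 11.6% of all genes, and above in 1, beside 8.47%. This list was chosen with earlier results of these data known, so its counts are not a test. The list's median log2 difference was -0.67, beside -0.01 over all genes. Cpne4, a copine that binds membranes in the presence of calcium, was at 8208, 6006 and 5656 in high and 18348, 16986 and 14205 in low libraries (log2 -1.33, SE 0.16, adjusted p = 0.0737). Grik4, the kainate receptor subunit of CA3, was at 2675, 1899 and 1121 in high and 3869, 4536 and 3847 in low libraries, with no overlap (log2 -1.19, SE 0.29, adjusted p = 0.199). Bok, a member of the Bcl-2 family, was at 2327, 2156 and 952 against 6121, 4277 and 4476, and Elavl2, a neuronal RNA-binding protein, at 2403, 2941 and 1333 against 5513, 6518 and 3064. In Grik4, Bok and Elavl2, high 3 was the lowest of the 6 libraries. Without high 3 the list's median was -0.22, and without high 2 it was -0.94. St18, Nnat, Coch, Ociad2 and Csf2rb2 overlapped between groups, with log2 differences from -0.67 to 0.18. Calb2, which marks mossy cells of the hilum but also thalamic neurons, was the member above in high performers, through 3199 in high 2 against 645 and 436 in the other high and 269 to 319 in the low libraries.

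CA1 markers went the other way. Of 12 listed CA1 genes, 8 did not overlap with high performers above, beside 8.47% of all genes, and 0 with high performers below, beside 11.6%. A difference above 0 was found in 11, while 0 passed. The list's median log2 difference was 1.88. Like the CA3 list, it was chosen with earlier results of these data known. Gpr161, an orphan receptor of the primary cilium that restrains Hedgehog signalling through cAMP, was at 2754, 3421 and 3416 in high and 692, 1019 and 509 in low libraries. That is 4.32-fold (log2 2.16, SE 0.24, 95% interval 1.59 to 2.73, adjusted p = 0.0686 by limma). Fibcd1, a membrane protein with a fibrinogen-like domain that binds acetylated sugars, was at 6190, 5064 and 7333 against 1037, 1994 and 1202 (log2 2.18, SE 0.25, adjusted p = 0.0703). Ccn3, a secreted matricellular protein also called Nov, was at 1831, 1674 and 1908 against 420, 707 and 306 (log2 2.00, SE 0.28, adjusted p = 0.0896). In each of these 3 genes low 2 was the highest low library, and for Ccn3 the high libraries lay close together.

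Other CA1 genes without overlap had lower precision. Wfs1, a protein of the endoplasmic reticulum and a common label of dorsal CA1, was at 9019, 10714 and 24581 in high and 3211, 4322 and 2009 in low libraries, with high 3 more than 2 times above any other library. Pou3f1, a POU-domain transcription factor, was at 2095, 2260 and 3794 against 297, 1028 and 891. Mpped1 had a log2 difference of 1.75 (SE 0.27) and Man1a, a mannosidase of the Golgi, of 1.21 (SE 0.22). Spink8, Dcn and Lefty1 overlapped between groups, and Zbtb20, a transcription factor of all hippocampal fields, had a difference of -0.11 (SE 0.08). Across the list, low 2 lay between low 1, low 3 and the high libraries: its mean deviation from each gene's mean was -0.17, beside -1.14 and -1.07 in low 1 and low 3 and 0.67 to 0.93 in the high libraries. Without low 2, 4 of the 12 CA1 genes passed, higher, and the median was 2.21. When all 18 libraries shared 1 estimate of the spread, 8 of the 12 CA1 genes passed, higher, and 5 of the 11 CA3 genes passed, lower.

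**Figure D1:**
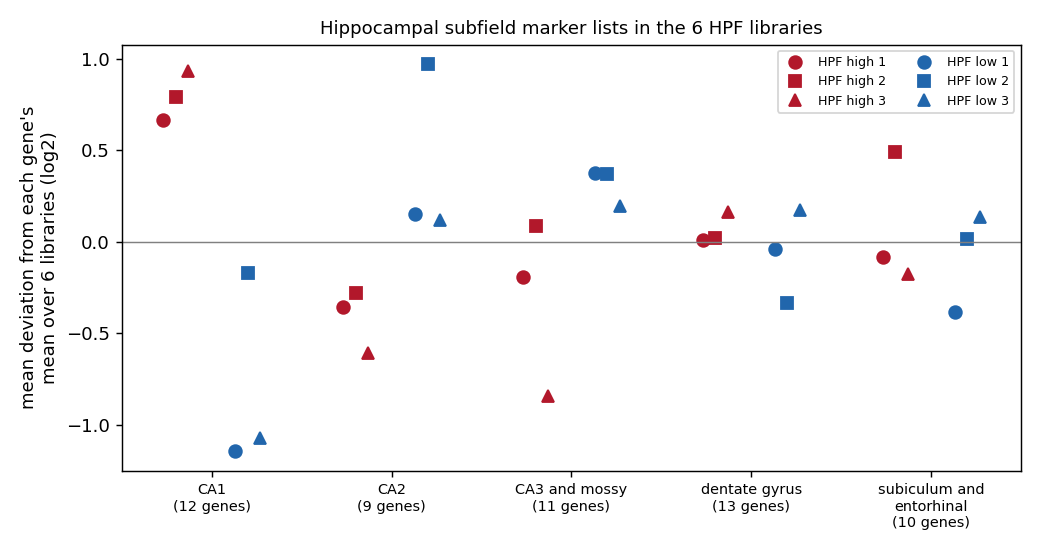
Mean deviation, in log2, of each marker list from its genes' means over the 6 HPF libraries, with high libraries in red and low libraries in blue, 1 point per library. The 3 high libraries sit between 0.67 and 0.93 for CA1 and all low libraries are below 0, while for CA3 and mossy cells the low libraries sit between 0.20 and 0.38.

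The promoters of the 3 genes at the head of these lists are shown because Iyd and Fibcd1 lie on opposite sides of the CA3 and CA1 contrast, and because Gpr161 had the smallest p of the named genes higher in high performers. The sequences, 300 bases each on the gene's own strand, are RefSeq's for GRCm38.p6: Iyd at chr10:3540024-3540323 on the plus strand, Gpr161 at chr1:165295516-165295815 on the plus strand and Fibcd1 at chr2:31845956-31846255 on the minus strand. Capitals mark matches to TGACG, the core of the cAMP response element, on either strand. A search for the E-box CAGCTG, read by neurogenic bHLH factors, found 0 matches in the 3 windows, so no overlap between motifs arose.
Iyd: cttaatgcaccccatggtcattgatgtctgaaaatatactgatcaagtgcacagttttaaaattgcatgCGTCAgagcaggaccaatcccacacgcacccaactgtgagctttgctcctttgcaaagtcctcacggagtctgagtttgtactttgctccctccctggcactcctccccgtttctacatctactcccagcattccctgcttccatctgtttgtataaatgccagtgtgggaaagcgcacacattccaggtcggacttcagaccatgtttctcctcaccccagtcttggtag
Gpr161: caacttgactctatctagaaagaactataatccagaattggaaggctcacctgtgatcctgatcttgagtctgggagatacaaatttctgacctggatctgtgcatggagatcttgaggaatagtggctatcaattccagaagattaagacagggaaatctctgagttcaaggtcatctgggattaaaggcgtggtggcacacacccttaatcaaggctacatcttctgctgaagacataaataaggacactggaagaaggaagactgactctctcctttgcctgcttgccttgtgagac
Fibcd1: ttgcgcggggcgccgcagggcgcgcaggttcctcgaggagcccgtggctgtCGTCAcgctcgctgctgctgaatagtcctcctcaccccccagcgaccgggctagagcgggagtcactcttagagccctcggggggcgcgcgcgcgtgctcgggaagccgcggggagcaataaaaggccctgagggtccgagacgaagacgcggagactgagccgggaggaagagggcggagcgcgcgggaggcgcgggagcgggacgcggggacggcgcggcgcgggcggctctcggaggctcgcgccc
Iyd and Fibcd1 held 1 TGACG match each and Gpr161 held 0. Over 32851 promoter windows of the same length, 20.8% held TGACG and 16.3% held CAGCTG. GC content was 49.0% for Iyd, 44.0% for Gpr161 and 74.3% for Fibcd1. Such matches describe the letters of these windows only.

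Dentate genes differed little between groups, and CA2 genes were mostly lower in high performers with wide spread. Of 13 dentate granule cell genes, 1 lay above and 1 below without overlap, beside 8.47% and 11.6% of all genes. A difference above 0 was found in 10, with a median of 0.24. C1ql2, a secreted organiser of mossy fibre synapses, was at 5234, 4122 and 5200 in high and 2962, 3046 and 3556 in low libraries (log2 0.60, SE 0.12, adjusted p = 0.163), while Prox1, the transcription factor that sets granule cell identity, overlapped (log2 0.24, SE 0.12). Il16, a cytokine precursor on the list, was below in every high library (log2 -0.67, SE 0.15, adjusted p = 0.185). Of 9 CA2 genes 7 had a difference below 0, 1 did not overlap, below, and the median was -0.75. Avpr1b, the vasopressin receptor of CA2, was at 5.19, 3.44 and 2.04 in high and 32.9, 166 and 38.5 in low libraries (log2 -3.80, SE 0.68, adjusted p = 0.139). Low 2 was also highest for Amigo2, a CA2 adhesion molecule, at 2271 against 347 to 810 in the other 5 libraries, and for Rgs14 at 7273 against 3649 to 5314.

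Markers of the output fields and of pallial excitatory neurons in general were split. Of 10 genes of subiculum and entorhinal cortex, 2 lay above and 2 below, median 0.18, beside 8.47% and 11.6% of all genes. Nectin3, a cell adhesion molecule, was at 2122, 1484 and 1212 in high and 4987, 4076 and 3121 in low libraries (log2 -1.35, SE 0.24, adjusted p = 0.137). Fn1, the matrix protein fibronectin, was at 965, 1087 and 855 against 637, 694 and 715 (log2 0.50, SE 0.12, adjusted p = 0.206). Of 12 genes shared by pallial excitatory neurons, 1 lay above and 3 below, and the median was 0.00. Slc17a7, the vesicular glutamate transporter VGLUT1, was at 64523, 49280 and 52535 in high and 84779, 89047 and 77234 in low libraries (log2 -0.60, SE 0.13, adjusted p = 0.184). Neurod6, a bHLH factor of CA pyramidal cells, was at 8477, 8636 and 7227 against 17398, 18851 and 11334 (log2 -0.94, SE 0.19, adjusted p = 0.163). Bcl11b was the member above, with a log2 difference of 0.39 (SE 0.11). Camk2a and Emx1 overlapped, with differences of 0.06 and -0.01.

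Markers of choroid plexus, thalamus and habenula were by far highest in 1 library, high 2. For the choroid plexus, which makes cerebrospinal fluid and lies against the hippocampal fimbria, Ttr was at 7990, 151270 and 5306 in high and 2986, 4902 and 3382 in low libraries. All 11 choroid and ependymal genes tested had a difference above 0 (median 1.53), 2 without overlap, and the summed level was 228471 in high 2, 15755 to 15973 in the other high and 9030 to 13555 in the low libraries. For thalamus and habenula, Tcf7l2, the transcription factor that defines thalamic neurons, was at 283, 2984 and 301 in high and 151, 236 and 248 in low libraries, and Slc17a6, which encodes VGLUT2, at 392, 3954 and 344 against 132, 245 and 292. Of the 12 thalamic and habenular genes, 6 lay above and 1 below without overlap, median 1.36, beside 8.47% and 11.6% of all genes. The member below was Prkcd, a protein kinase C of thalamic neurons, at 2253, 3780 and 822 against 8681, 6907 and 6072, a pattern opposite to that of Tcf7l2. Without high 2 the medians were 0.25 for choroid plexus and 0.51 for thalamus and habenula. Of the 10 thalamic and habenular genes still tested without high 2, 7 lay above and 1 below, and of the striatal and septal genes 5 of 10 lay above. A count of genes without overlap cannot fall when a library is left out unless a gene drops below the filter, and over all genes it was then 15.2% above and 18.4% below. The CA1 median without high 2 was 2.00, with 8 genes above and 1 below, and the CA3 median was -0.94. Of 10 striatal and septal genes 4 lay above, median 0.73. High 2 was the highest library for this list too, with a mean deviation of 1.04 beside 0.06 and 0.01 in high 1 and high 3. Without high 2 its median was 0.52. Ppp1r1b, the dopamine-regulated inhibitor DARPP-32, was at 3058, 4511 and 3867 against 1624, 2425 and 2359 (log2 0.84, SE 0.20, adjusted p = 0.191). Of 10 neocortical layer genes, 3 lay above and 2 below, median -0.04. Etv1, a transcription factor of deep layers, had a log2 difference of 0.70 (SE 0.15, adjusted p = 0.173). The part of these tissues in the other results was not tested, and leaving out 1 library does not show what the others hold.

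Markers of astrocytes, microglia and vessels had differences above 0 in high performers, with high 3 the highest library for each of these lists, and 0 of their genes passed. All 12 astrocyte genes had a difference above 0 (median 0.38), 3 without overlap, beside 8.47% of all genes above. Fgfr3, a growth factor receptor of astrocytes, was at 7036, 5963 and 8438 in high and 4223, 5373 and 4507 in low libraries (log2 0.60, SE 0.15, adjusted p = 0.205). Gjb6, the gap junction protein connexin 30, had a log2 difference of 0.73 (SE 0.19, adjusted p = 0.221). All 13 endothelial and mural genes were also above 0 (median 0.57), 4 without overlap. Slc2a1, the glucose transporter of the blood-brain barrier, was at 4075, 4022 and 4212 against 2657, 3063 and 2595 (log2 0.57, SE 0.09, adjusted p = 0.107), with every high library above 4000. For the endothelial junction gene Cldn5 the spread was wide, at 843, 467 and 1670 against 590, 488 and 679. Summed endothelial levels were 23021 in high 3, 13695 and 14652 in the other high and 9857 to 12600 in the low libraries, and without high 3 the medians were 0.22 for endothelial and mural cells and 0.15 for astrocytes. Without high 2, the lowest high library for astrocytes, 10 of 12 astrocyte, 7 of 13 endothelial and mural and 7 of 13 microglial genes lay above, beside 15.2% of all genes then, and without low 3 the endothelial and mural count was 10 and the microglial one 5 (14.6%). All 13 microglial genes had a difference above 0 (median 0.28) but 0 were without overlap: Cx3cr1, the fractalkine receptor, was at 3635, 2568 and 4127 against 2099, 2544 and 2816. Of 16 oligodendrocyte and myelin genes 1 lay above, median 0.11, and the median was -0.12 without low 3, the lowest library for this list. Of 16 inhibitory neuron genes 1 lay above, the Calb2 already described, and Nos1, neuronal nitric oxide synthase, had a log2 difference of -0.44 (SE 0.14, adjusted p = 0.271). Of 6 blood genes 1, Slc4a1, lay below, and the haemoglobin gene Hba-a1 overlapped, at 1526 to 2530 in high and 1458 to 2975 in low libraries.

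**Figure D2:**
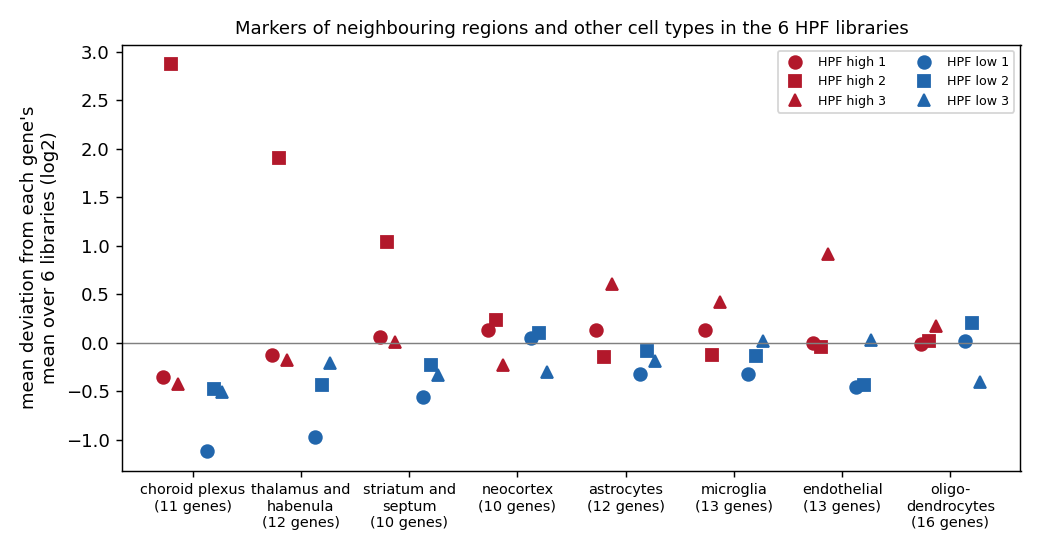
Mean deviation, in log2, of marker lists of neighbouring regions and other cell types from their genes' means over the 6 HPF libraries, with high libraries in red and low libraries in blue. High 2 stands alone for choroid plexus, at 2.88, and for thalamus and habenula, at 1.90, and high 3 is the highest library for endothelial cells, at 0.91, and astrocytes, at 0.60.

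Of the 12 named genes with the smallest p above in high performers 0 passed (adjusted p 0.0686 to 0.0896 by limma). Rin2, an exchange factor for the endosomal GTPase Rab5, was at 3219, 3245 and 3246 in high and 1998, 2101 and 1832 in low libraries. The high libraries hardly differed among themselves (SD 15.7), and the log2 difference was 0.71 (SE 0.08, 95% interval 0.52 to 0.90). Cacna1i, a T-type calcium channel that supports burst firing, was at 2716, 2554 and 2607 against 1357, 1628 and 1238 (log2 0.91, SE 0.11). Itpka, the inositol trisphosphate kinase of dendritic spines, was at 8096, 8309 and 9140 against 5587, 4966 and 5555 (log2 0.67, SE 0.09). These 3 genes differed by less than 1 on the log2 scale and were among the most even within groups.

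Larger folds came with wider spread in high performers. Tlr1, an innate immune receptor for bacterial lipoproteins, was at 94.4, 171 and 333 in high and 15.6, 12.2 and 11.1 in low libraries (15.4-fold, log2 3.67, SE 0.47). Efcab6, an EF-hand calcium-binding protein, was at 336, 369 and 890 against 35.2, 73.0 and 44.7 (10.4-fold, log2 3.28, SE 0.44). For both genes high 3 was the highest library. Pex5l, which encodes TRIP8b, the subunit that places HCN channels in dendrites, was at 8532, 11310 and 11844 against 3823, 5205 and 3393 (log2 1.36, SE 0.19). Cds1, an enzyme that makes CDP-diacylglycerol for phosphoinositide synthesis, had a log2 difference of 1.25 (SE 0.16), Cpne8, another copine, of 1.95 (SE 0.26) and Fnbp1l, an actin and membrane-curving adaptor, of 1.13 (SE 0.15). In all 3, low 2 was again the highest low library.

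Among the 12 named genes with the smallest p below in high performers, 1 passed, Iyd, and the adjusted p of the other 11 ran from 0.0527 to 0.0737. Nvl, a nuclear ATPase of ribosome biogenesis, was at 1270, 1300 and 1219 in high and 8330, 4455 and 5332 in low libraries (4.78-fold lower, log2 -2.21, SE 0.21, adjusted p = 0.0527). The high libraries lay within a narrow range and every low library was more than 3 times above them. Ak5, an adenylate kinase of brain that balances adenine nucleotides, was at 12407, 13508 and 12878 against 27244, 23926 and 22904 (log2 -0.93, SE 0.09, adjusted p = 0.0527). Hs3st4, a heparan sulfate sulfotransferase of neurons, was at 3216, 2567 and 2672 against 8488, 10386 and 6857 (log2 -1.59, SE 0.16, adjusted p = 0.0527). No library of these genes crossed into the other group's range.

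The remaining reported genes of these 12 were spread over several functions. Epha5, an ephrin receptor of axon guidance, was at 7733, 8627 and 6471 in high and 15333, 14754 and 13132 in low libraries (log2 -0.93, SE 0.12). Rem2, a small GTPase that inhibits calcium channels, was at 484, 516 and 292 against 1426, 1555 and 1248 (log2 -1.75, SE 0.23). Low libraries were close to each other in both genes. Clmp, an adhesion molecule, had a log2 difference of -1.46 (SE 0.18) and Prss35, a protease-like protein, of -1.92 (SE 0.23). Smallest in size among these were the differences of Islr2, a membrane protein of axon growth, at -0.55 (SE 0.07), and of Kcnh1, the potassium channel EAG1, at -0.54 (SE 0.07).

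**Figure D3:**
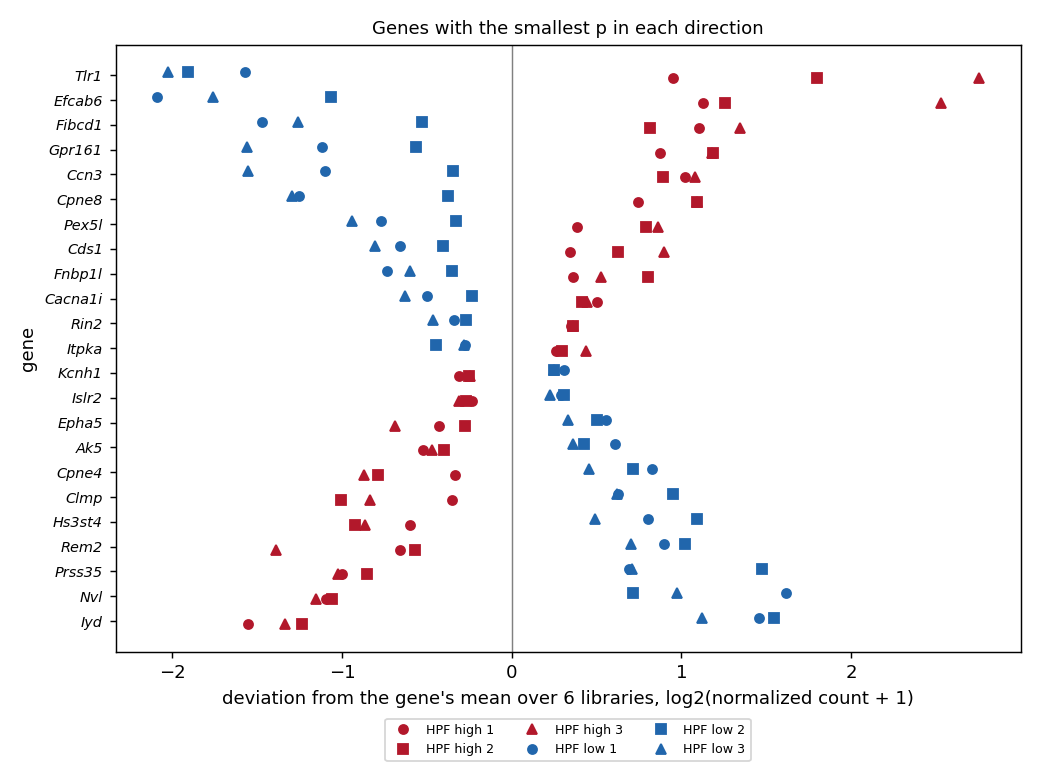
Deviation of each of the 6 HPF libraries from the gene's mean, on the log2(normalized count + 1) scale, for the 23 reported genes named by smallest p, 12 above and 11 below in high performers, with high libraries in red and low libraries in blue. For each of the 23 genes the groups are apart, as the choice by p makes likely, and only Iyd passed.

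The pair of genes that passed with high performers above are processed pseudogenes, copies of a messenger RNA set back into the genome, and fall outside the rule for named genes, so they were chosen after their values were seen. Gm8399 (ENSMUSG00000043889, GRCm38 chromosome 13, 81064684 to 81065800, plus strand) was at 1399, 1415 and 900 in high and 82.2, 101 and 93.6 in low libraries (log2 3.71, SE 0.21, adjusted p = 0.00727). Actg-ps1 (ENSMUSG00000074978, GRCm38 chromosome 8, 46228994 to 46230117, plus strand), a gamma actin pseudogene, was at 655, 566 and 294 against 24.4, 25.9 and 20.5 (log2 4.29, SE 0.33, adjusted p = 0.0198). Reads of such copies resemble those of their parent genes, so both values are uncertain. In the other tissues the low libraries were split. Gm8399 was at 38.8, 42.6 and 873 in MDTH low and 36.4, 1681 and 1042 in PFC low libraries. Actg-ps1 was at 3.64, 4.48 and 288 in MDTH low and 11.7, 815.5 and 417.9 in PFC low libraries. High libraries of these tissues ran from 665 to 1565 for Gm8399 and from 211 to 564 for Actg-ps1. Whether these genes follow the animal rather than performance was not tested. Leaving out high 1 ended both calls (adjusted p = 0.0705 for Gm8399 and 0.0721 for Actg-ps1), as did lane as a term (0.104 and 0.170) and a fit of all 18 libraries (0.161 and 0.178). That of Actg-ps1 also ended without high 2 (0.113), low 1 (0.0539) or low 3 (0.0629) and with no mean-variance trend (0.0833). Without overlap and more than 4-fold apart were 22 of 1135 pseudogenes tested (1.94%), 63 of 15006 protein-coding genes (0.42%) and 18 of 1941 genes of other types (0.927%). These shares were not matched for expression level and were read after the pair of pseudogenes had been seen.

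Genes of neurotransmitter release were below in high performers as a list, although 0 of 22 passed. Of the 22, 15 did not overlap with high performers below, beside 11.6% of all genes, and 0 with high performers above, beside 8.47%. A difference below 0 was found in 21, with a median of -0.46. This list, too, was chosen with earlier results of these data known. Snap25, a SNARE protein of vesicle fusion, was at 104010, 94786 and 73078 in high and 180240, 160600 and 144990 in low libraries (log2 -0.85, SE 0.17, adjusted p = 0.153). Vamp1, its vesicle partner synaptobrevin 1, was at 3204, 4024 and 2855 against 7212, 6202 and 5369 (log2 -0.90, SE 0.16, adjusted p = 0.135). Complexin and synapsin genes followed: Cplx1 was at 17147, 16444 and 13209 against 26599, 31542 and 21990, and Syn1 at 22467, 20884 and 16849 against 32670, 31615 and 27717. High 3 was the lowest library for each of these 4 genes, and without it the median was -0.37. Unc13a, the priming factor Munc13-1, overlapped (log2 -0.05, SE 0.07), as did Syt7, Syn3 and Nptx2. With all 18 libraries in the fit 3 of the 22 passed, lower.

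Postsynaptic and receptor genes were mixed, beside 8.47% of all genes above and 11.6% below, and 0 passed. Of 26 genes of the postsynaptic density and plasticity kinases, 7 lay below and 0 above, with a median of 0.06. Prkca, a protein kinase C, was at 9352, 10469 and 9434 in high and 14693, 19389 and 12889 in low libraries (log2 -0.66, SE 0.15, adjusted p = 0.185). Cacng8, an auxiliary subunit of AMPA receptors, was at 4921, 4835 and 5190 against 6228, 6926 and 6048 (log2 -0.36, SE 0.08, adjusted p = 0.185). Of 22 glutamate receptor genes 2 lay above and 4 below, median 0.16. Grin2a, the NMDA receptor subunit GluN2A, was at 16716, 20325 and 22728 against 13735, 15020 and 13910 (log2 0.48, SE 0.12, adjusted p = 0.218), so the lowest high library was close to the highest low one. The main AMPA receptor subunits Gria1, Gria2 and Gria3 overlapped, with log2 differences of 0.04, 0.03 and 0.03 (SE 0.09 to 0.11). Of 14 GABA receptor genes 2 lay above and 2 below, median 0.07. Gabra3, a GABA-A receptor subunit, was at 1334, 2254 and 1663 against 680, 887 and 641 (log2 1.23, SE 0.21, adjusted p = 0.135), and Gabra2 at 18747, 17022 and 18587 against 12978, 15704 and 12472 (log2 0.41, SE 0.11, adjusted p = 0.228).

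Receptor and channel genes went both ways, beside 8.47% of all genes above and 11.6% below, and 0 passed. Of 33 orphan receptors tested, 5 lay above and 7 below, median -0.06, with Gpr161 among those above. Of 28 monoamine and acetylcholine receptors, 4 lay above and 3 below, median 0.24. Htr1b, an inhibitory serotonin receptor of axon terminals, was at 319, 636 and 612 in high and 75.9, 208 and 58.7 in low libraries (log2 2.34, SE 0.50, adjusted p = 0.175). Chrm5, a muscarinic receptor of low level here, was at 34.6, 50.1 and 76.4 against 6.76, 18.3 and 7.48 (log2 2.26, SE 0.50, adjusted p = 0.185). Of 29 potassium and HCN channel genes 6 lay above and 5 below, median 0.06, with Kcnh1 and Kcnh7 in opposite directions. Kcnh7, the channel ERG3, was at 2003, 3957 and 3210 against 954, 1334 and 772 (log2 1.56, SE 0.29, adjusted p = 0.143). Of 26 cAMP signalling genes 4 lay above and 3 below, median 0.10. Rapgef3, the cAMP-activated exchange factor Epac1, was at 1594, 1909 and 1738 against 996, 1406 and 973 (log2 0.65, SE 0.16, adjusted p = 0.205), and Prkaca, a catalytic subunit of protein kinase A, at 9039, 9498 and 8149 against 11459, 10379 and 10666 (log2 -0.29, SE 0.09, adjusted p = 0.263). Of 24 primary cilium genes 2 lay above and 2 below, median 0.00, Gpr161 again above and Sstr3, a somatostatin receptor of cilia, at 1606, 845 and 951 against 1946, 2330 and 1615 (log2 -0.83, SE 0.25, adjusted p = 0.263).

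Nuclear and mitochondrial genes of the respiratory chain differed in opposite directions, and 0 of either passed. Of 47 nuclear-encoded subunits 44 had a difference below 0 and 24 did not overlap, all below, beside 11.6% of all genes. The differences were small, with a median of -0.12. Atp5g1, a subunit of the ATP synthase ring, was at 4857, 4216 and 4036 in high and 6853, 5617 and 5988 in low libraries (log2 -0.49, SE 0.11, adjusted p = 0.185), and Cox5a, of cytochrome oxidase, at 4853, 4530 and 4389 against 5507, 5716 and 5306 (log2 -0.26, SE 0.08, adjusted p = 0.244). All 13 genes encoded by the mitochondrial genome had a difference above 0 (median 0.42), 2 without overlap, beside 8.47% of all genes above. mt-Cytb was at 529770, 453590 and 652410 against 332540, 383520 and 357260 (log2 0.59, SE 0.19, adjusted p = 0.287). With quantile normalization, which gives all libraries the same set of values, the difference of mt-Cytb was 0.01 (adjusted p = 0.976) and the mitochondrial list's median 0.21. The summed mitochondrial level was 3300263, 3030807 and 4065691 in high and 2159838, 2867756 and 2827481 in low libraries, so high 3 was the highest and low 1 the lowest. Of 47 ribosomal protein genes 3 lay above and 0 below, median 0.08. That count was 20 above without high 1 (14.4% of all genes then) and 12 without low 3 (14.6%), with medians of 0.14 and 0.15.

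Genes that respond to activity, hormones and time of day were mixed, and 0 passed. Of 30 immediate-early genes 6 lay below and 0 above, median -0.05, beside 11.6% of all genes below and 8.47% above. Without low 3, 13 lay below (18.9% of all genes then) and the median was -0.20. It was 0.04 without low 1 and 0.00 with lane as a term. Nr4a3, a nuclear receptor induced by activity, was at 3164, 2736 and 1793 in high and 7424, 5870 and 3661 in low libraries (log2 -1.12, SE 0.30, adjusted p = 0.228), and Gadd45b, a stress-response gene linked to DNA demethylation, at 277, 271 and 314 against 450, 460 and 349 (log2 -0.54, SE 0.17, adjusted p = 0.266). Of 10 neurotrophin and growth signal genes, 1 lay above and 1 below, median -0.06. Of 16 CREB and memory-linked regulators 1 lay above and 1 below, median 0.02, with differences between -0.19 and 0.15. Of 15 glucocorticoid and stress genes 2 lay above and 0 below, median 0.26. Mt2, a metallothionein, was at 6917, 4277 and 6028 against 2229, 3084 and 4165 (log2 0.88, SE 0.26, adjusted p = 0.248). Of 16 clock genes 3 lay above and 1 below, median 0.16. Npas2, a partner of Bmal1 in the forebrain clock, was at 1222, 1217 and 1343 against 682, 792 and 911 (log2 0.67, SE 0.13, adjusted p = 0.151). Of 14 adult neurogenesis genes 2 lay above and 1 below, median 0.10.

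Genes that often vary with strain background were also read. Of 22 H2 and interferon genes 2 lay above and 1 below, median 0.28, beside 8.47% and 11.6% of all genes. High 1 was the lowest library for this list, with a mean deviation of -0.595 beside 0.371 and 0.434 in high 2 and high 3. Without high 1, 9 lay above and 1 below (14.4% and 18.2% of all genes then), and the median was 0.60. H2-T22, a class I histocompatibility gene, was at 57.1, 209 and 54.7 in high and 259, 602 and 571 in low libraries (log2 -2.35, SE 0.57, adjusted p = 0.205). H2 genes are near-identical copies of each other and differ between founder strains, so their values are uncertain. Of 8 genes known to vary among inbred strains 3 lay above and 0 below, median 0.39. Pttg1, securin, was at 447, 37.2 and 1169 against 34.0, 13.7 and 29.5 (21.4-fold, log2 3.44, SE 1.15, adjusted p = 0.296), with high 2 only just above the low libraries. Of 4 sex-linked genes tested 0 were without overlap.

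**Figure D4:**
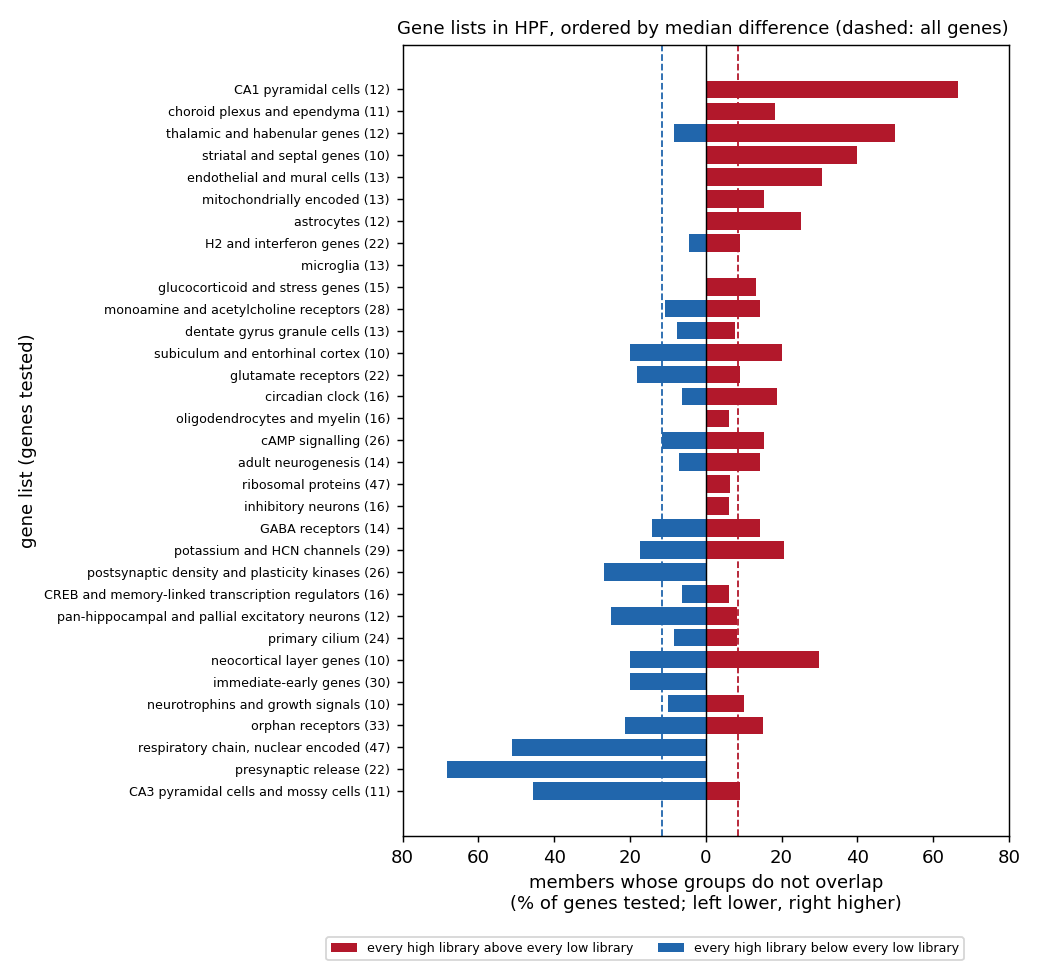
Share of each gene list's tested members, in percent, whose high libraries all lie above (red, right) or below (blue, left) all low libraries, for lists of at least 10 tested genes, ordered by median log2 difference. The dashed lines are the shares over all 18082 genes, 8.47% above and 11.6% below, and CA1 on the right and presynaptic release on the left reach farthest beyond them. The lists were chosen with earlier results of these data known.

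The largest differences without overlap, among named genes with a mean of at least 50, mostly did not pass: of the 10 genes here only Iyd did. Above in high performers these were Tlr1, Alox12b, Pttg1, Efcab6 and Chrna5. Alox12b, a lipoxygenase best known from skin, was at 257, 255 and 212 in high and 37.1, 60.7 and 2.71 in low libraries (log2 3.55, SE 0.96, adjusted p = 0.229). Chrna5, a nicotinic receptor subunit, was at 162, 278 and 342 against 14.1, 88.5 and 38.6 (log2 2.73, SE 0.63, adjusted p = 0.191). Below were Iyd, Frem3, Otos, Cd109 and Cyp26b1. Frem3, an extracellular matrix protein, was at 15.6, 3.44 and 13.6 against 232, 118 and 463 (24.9-fold lower, log2 -4.51, SE 0.67, adjusted p = 0.0994). Cyp26b1, the enzyme that breaks down retinoic acid, was at 1003, 718 and 114 against 2825, 4026 and 2734 (log2 -2.85, SE 0.74, adjusted p = 0.228). Cd109, a membrane antagonist of TGF-beta signalling, was at 571, 445 and 29.6 against 1734, 2038 and 1468 (log2 -3.13, SE 1.02, adjusted p = 0.285). For both Cyp26b1 and Cd109, high 3 was far below the other high libraries. Otos had a log2 difference of -3.38 (SE 0.66, adjusted p = 0.152).

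An interaction term in limma, fitted over 18254 genes and all 18 libraries, asked whether a difference in HPF departed from that in the other tissues. The difference in HPF departed from that in PFC for 1669 genes (9.14%) and from that in MDTH for 3476 (19.0%). Numbers in the library names recur across tissues, and the fit treats the 18 libraries as independent. The residual correlation of libraries with the same number was 0.356, and with that number as a random block 2432 genes departed from PFC and 4993 from MDTH. Of the 25 genes tested and reported for this, 23 named by p and the 2 pseudogenes, 14 departed from PFC and 18 from MDTH, but they were chosen for their HPF values, so these shares are not read against the background. Iyd was opposite in MDTH, at 337, 259 and 359 in high and 79.7, 64.1 and 72.4 in low libraries, and reached at most 5.14 in PFC. Fibcd1 was at 410, 189 and 152 in high and 649, 1790 and 2295 in low libraries of MDTH, again opposite to HPF, and at 205 to 417 in PFC. Cpne8 and Efcab6 were also lower in the high than in the low group of MDTH, with log2 differences of -1.86 and -1.36. Itpka had like differences in all 3 tissues, 0.67 in HPF, 0.85 in MDTH and 0.72 in PFC. Kcnh1 and Islr2 were lower in both HPF and MDTH, by -0.54 and -2.47 for Kcnh1 and by -0.55 and -2.50 for Islr2.

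**Figure D5:**
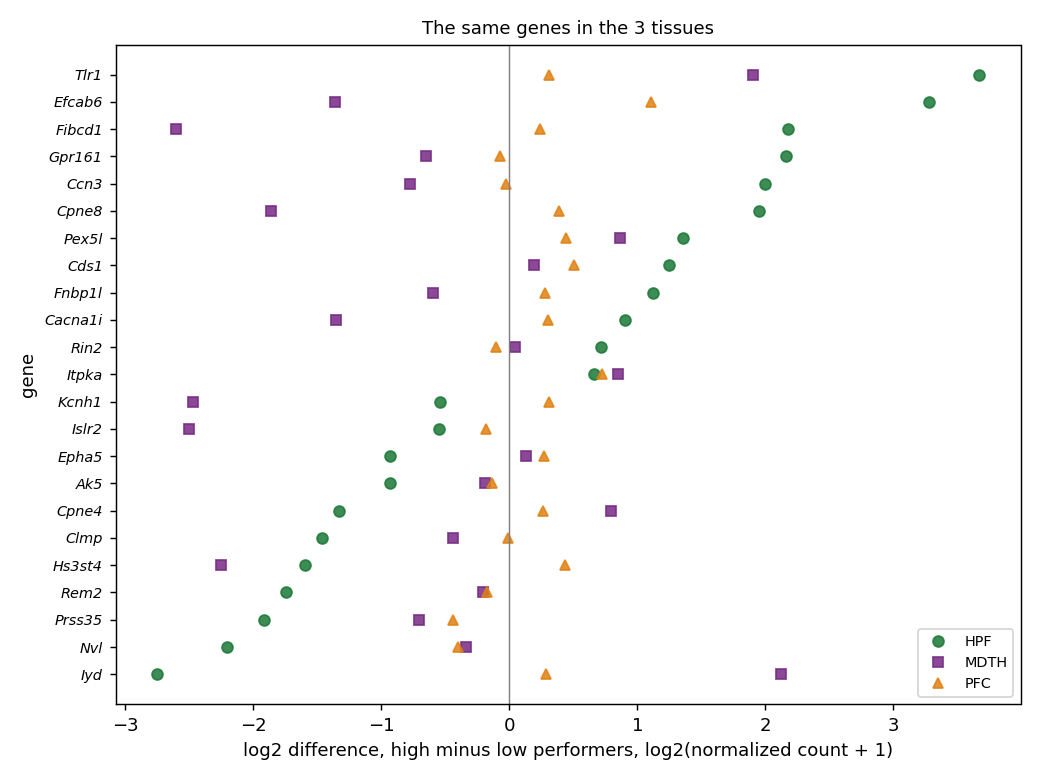
Log2 difference, high minus low performers, of the 23 reported genes in HPF (green circles), MDTH (purple squares) and PFC (orange triangles), ordered by the difference in HPF. For Iyd the HPF value is -2.75 and the MDTH value 2.12, for Fibcd1 they are 2.18 and -2.60, and most PFC values lie within 0.5 of 0.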

How the data were processed

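RNA of 6 HPF libraries, 3 from high and 3 from low performers, was read from the deposited table, whose name says that the authors normalized its counts, so each value is a signal and not a whole count. The kit was the stranded TruSeq kit for mRNA, per the labels' protocols. STAR, Salmon and DESeq2 are named without versions, per the submitters' processing notes. Genome build, annotation and use of strand in counting are not given in the sources used here, so reads of overlapping or antisense genes cannot be told apart. Whole reads could be recovered for 27.2% to 48.8% of low values (within 0.02 of a read), so no count test was run. Depth was estimated from the worth of 1 read, which is approximate. All columns matched a sample.

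Genes averaging 10 or more normalized counts in HPF were tested with limma 3.58.1 in R 4.3.3 on log2(normalized count + 1), two-sided, with a mean-variance trend and Benjamini-Hochberg adjustment (threshold 0.05). Interactions were tested in a fit of all 18 libraries with 6 group means. Tables and figures were made with Python 3.11.15, pandas 2.3.3, numpy 2.4.6 and matplotlib 3.10.9. The fit was tested on simulated data. Of the gene identifiers, 99.2% were found in GENCODE M21 (GRCm38), the source of coordinates.

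Named genes were the 12 with the smallest p in each direction, the 5 with the largest difference without overlap in each direction (mean of at least 50) and of each of 37 gene lists the 2 members of smallest p, leaving out predicted genes, clones and pseudogenes. Other list members are named as examples, chosen after their values were seen. A few named genes and list members are left out of the text. The members and lists were chosen with earlier results of these data known. Alternatives covered the pseudocount, the filter, the scaling, the variance model, the libraries in the fit, the lane, replicate numbers and leaving out each library.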

Additional observations from a re-analysis of the deposited data

Results flagged for a closer look

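These genes were taken because their difference between high and low performers in HPF departed from that in another tissue by the interaction test of limma over all 18 libraries, at an adjusted p below 0.05. Values are the log2 difference in HPF minus that in the other tissue. The genes had been chosen for their HPF values. The test treats libraries that share a name number across tissues as independent. Unlike the high groups, the low groups of the tissues carry mostly different numbers. A departure therefore cannot be told apart from a difference between the low libraries compared. With the number as a random block, each gene given here kept its direction and an adjusted p below 0.05.

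Against PFC, the CA1 genes stood higher, with 2.23 for Gpr161 and 2.03 for Ccn3, and the CA3 genes lower, with -3.04 for Iyd and -1.59 for Cpne4. Among the other genes above in HPF the values were 3.36 for Tlr1, 0.91 for Pex5l, 0.82 for Rin2 and 0.74 for Cds1. Among the other genes below they were -2.03 for Hs3st4, -1.8 for Nvl, -1.57 for Rem2, -1.45 for Clmp, -1.2 for Epha5 and -0.8 for Ak5. The adjusted p ran from 0.00281 for Gpr161 to 0.0426 for Nvl.

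Against MDTH, the values were 4.78 for Fibcd1, 2.81 for Gpr161 and 2.77 for Ccn3 among genes listed for CA1. Among genes listed for CA3 they were -4.87 for Iyd and -2.13 for Cpne4. Fibcd1, Iyd and Cpne4 were also expressed in MDTH, at levels that overlapped those of HPF. Which cells express these genes in MDTH was not tested. Others above were 4.63 for Efcab6, 3.81 for Cpne8, 2.26 for Cacna1i, 1.72 for Fnbp1l, 1.06 for Cds1 and 0.67 for Rin2. Others below were -1.87 for Nvl, -1.54 for Rem2, -1.06 for Epha5, -1.02 for Clmp and -0.74 for Ak5. Islr2, at 1.95, and Kcnh1, at 1.93, were positive because both were lower still in MDTH high performers, by 2.50 and 2.47 on the log2 scale. The adjusted p ran from 4.86e-05 for Iyd to 0.03 for Rin2.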

How the results depend on the processing

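The number of genes that passed in HPF (3, 2 higher and 1 lower, by limma) was small under every alternative but 1. It was 265 (95 higher, 170 lower) with all 18 libraries in the fit, which took the spread from all tissues and in which 1 of the 3 genes still passed. It was 11 (6 higher, 5 lower) with no filter, 8 (4 and 4) with upper-quartile scaling, 7 (3 and 4) with quantile normalization, 6 (3 and 3) with a pseudocount of 0.5 or robust empirical Bayes, 6 (2 and 4) with lane as a term, and 2 (1 higher, 1 lower) with no mean-variance trend. A pseudocount of 5, a mean of at least 50 and median-ratio size factors gave 3. Leaving out each library in turn gave 0 to 15 genes, 0 to 12 higher and 0 to 3 lower, with 0 without high 1 (2382 at an unadjusted p below 0.05) and 15 without low 2. With the replicate number as a block 0 genes passed (0 higher, 0 lower, 2540 at an unadjusted p below 0.05), and the smallest adjusted p was 0.0768. High and low libraries with the same replicate number in their titles had deviations that correlated at 0.09, 0.074 and -0.007. The titles do not say that these numbers pair libraries, so they were not taken as pairs. They are not the numbers in the library names. With lane as a term 0 of the 3 genes still passed, and only lane 4 holds both groups, so lane and group cannot be told apart in the rest.

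Over 1739 recomputed differences of named and passed genes in HPF, 1662 kept their direction and side of the threshold, 59 newly passed, 18 no longer passed and 0 changed sign. Most of these genes had no call to lose. The 18 lost calls were all of the 3 genes that passed: of 18 alternatives, Gm8399 kept its call in 14, Iyd in 12 and Actg-ps1 in 10. The interaction of Itpka against PFC changed sign, to 0.0388, with the library name number as a random block, beside -0.0578. Values near the filter of 10 rest on few reads, and all intervals rest on 3 libraries a group.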

Other observations

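Some values in HPF followed the number in the library's name in the other tissues. Pttg1 was at 37.2, 1169 and 447 normalized counts in the HPF libraries numbered 44, 88 and 165, at 69.0, 1542 and 760 in the MDTH libraries with these numbers and at 32.2, 1436 and 549 in those of PFC, so number 44 was lowest and 88 highest each time. All 3 are high performers. Nvl was at 8330 in the HPF library numbered 163, a low performer, and at 3095 in the MDTH library of that number, beside 1161 and 1253 in the other low libraries of MDTH. H2-T22 had log2 differences of -2.35 in HPF, -2.44 in MDTH and -2.44 in PFC. The pseudogene Gm8399 was at 82 in the HPF library numbered 163 and at 42.6 in that of MDTH. The other low libraries of MDTH were at 38.8 and 873. Actg-ps1 was at 24.4 and 4.48 in the libraries numbered 163, beside 3.64 and 288 in the other low libraries of MDTH. For both pseudogenes number 88 was the lowest high library in each tissue.

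Genes without overlap and more than 2-fold apart were most frequent on chromosome 14, with 11 higher and 21 lower of 628 tested (5.1%), followed by chromosome 9, with 23 higher and 16 lower of 1000 tested (3.9%). On the other autosomes and the X chromosome the share was 1.45% to 3.5%. Over all 18082 genes tested, 281 were higher and 193 lower in this sense.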
